A study of Mus musculus with 6 samples.

Results

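The endocannabinoid genes described here are *Cnr1* and 9 further genes of the same signaling system, 10 of the 55401 genes counted in each tibia library. *Cnr1* was taken up because the DESeq2 comparison of these libraries placed it among the genes lower in Atrx-cKO, so its difference between genotypes is given as a description. The other 9 were chosen for their known roles, with earlier results of these data known. They are the receptors *Cnr2*, *Gpr55* and *Trpv1*, the synthetic enzymes *Dagla*, *Daglb* and *Napepld*, and the degrading enzymes *Mgll*, *Abhd6* and *Faah*. Polyadenylated RNA was sequenced from whole tibias of 3 Atrx-cKO mice (genotype Osterix-Cre; Atrxf/y) and 3 control mice (Atrxf/y), all of them 8 weeks old. Every mouse carried the floxed *Atrx* allele on its single X chromosome, and the control genotype has no *Osterix-Cre*. The Cre is under *Osterix* (*Sp7*) control and acts in preosteoblasts and their descendants, and doxycycline kept it off until 3 weeks of age. No library came from a mouse with *Osterix-Cre* and intact *Atrx*, so effects of the transgene and of *Atrx* loss cannot be told apart in these libraries. The study reported no significant differences between *Osterix-Cre* mice with intact *Atrx* and floxed controls in bone structure or tibia *Runx2*, *Col1a1* and *Ocn*. *Cnr1* was not among these genes.

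Endocannabinoids are lipid messengers made on demand from membrane phospholipids. Diacylglycerol lipases produce 2-arachidonoylglycerol (2-AG), and NAPE-PLD is a route to anandamide and other N-acylethanolamines. Both lipids act on CB1 and CB2, which are G protein-coupled receptors that signal mainly through inhibitory G proteins. CB1 is best known from nerve terminals, where it restrains transmitter release, and CB2 from blood cells. Both receptors have been studied in bone cells as regulators of bone mass.

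Counts on genes ran from 50977777 to 70571655 per library. Levels are given in CPM, the counts of a gene scaled by the library's total, with TMM factors that correct for differences in composition. A count of 0 allows up to 3 counts, which is 0.0425 to 0.0588 CPM before TMM, and this limit covers counting error only. Nothing in the labels ties the libraries to separate litters or days, so p-values measure the spread between these 3 libraries per genotype, which also includes technical spread. *Atrx* averaged 163 ± 9.53 CPM across the Atrx-cKO libraries and 169 ± 4.98 CPM across the controls (SD, n = 3 each). Its count covers the whole gene in all cells of the bone and does not check the genotypes. Control replicate 3 stood apart in the sum of skeletal muscle markers (*Acta1*, *Ckm*, *Myh4*, *Myh1* and *Tnnt3*), at 9432 CPM against 545 to 1870 CPM in the other 5 libraries. *Myh1* was not high there, at 52.3 CPM against 134 and 109 CPM in control replicates 1 and 2 and 23.3 to 181 CPM in Atrx-cKO. Osteoblast markers (*Bglap*, *Col1a1*, *Ibsp*, *Alpl*, *Sp7* and *Runx2*) summed to between 57832 and 99230 CPM, so the defining markers of bone were abundant in every library. Of the neuron markers, *Th* and *Calca* had at most 10 counts in any library, and the Schwann cell marker *Pmp2* had 0 in all 6.

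*Cnr1* (ENSMUSG00000044288), which encodes CB1, lies on the plus strand of chromosome 4 from 33924593 to 33948831 of GRCm38. *Cnr2* (CB2) and *Faah* lie on the same chromosome, from 135895394 to 135920207 and from 115967145 to 116017926. RefSeq (GRCm38.p6) promoter windows matched 9 of the 10 genes. The windows upstream of the first listed start of each cannabinoid receptor gene are shown because the levels of these paralogs are compared below. They are 250 bases long, read 5′ to 3′ on the plus strand, with CG dinucleotides in capitals.
*Cnr1*, chr4:33924014-33924263: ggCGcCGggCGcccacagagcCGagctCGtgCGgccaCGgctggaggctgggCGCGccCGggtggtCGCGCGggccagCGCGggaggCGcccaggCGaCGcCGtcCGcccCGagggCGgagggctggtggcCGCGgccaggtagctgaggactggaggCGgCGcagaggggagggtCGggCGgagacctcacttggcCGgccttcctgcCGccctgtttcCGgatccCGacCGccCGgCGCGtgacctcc
*Cnr2*, chr4:135894939-135895188: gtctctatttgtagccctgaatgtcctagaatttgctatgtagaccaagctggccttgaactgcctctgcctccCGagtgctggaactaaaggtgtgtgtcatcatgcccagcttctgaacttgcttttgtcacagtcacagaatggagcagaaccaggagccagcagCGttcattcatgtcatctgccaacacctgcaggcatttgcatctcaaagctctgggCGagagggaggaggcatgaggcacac
The *Cnr1* window held 36 CG dinucleotides and a GC content of 79.2%, and 2.58% of all 32851 windows in the RefSeq table held as many. The *Cnr2* window held 3, with a GC content of 51.6%, and 71.0% of windows held as many. The median over all windows was 6. *Cnr1* has 3 listed starts, and the other two windows held 28 and 5 CG dinucleotides. Windows of *Mgll*, *Abhd6* and *Napepld* held from 18 to 40, and those of *Daglb*, *Faah*, *Gpr55* and *Trpv1* from 2 to 9. These counts describe the sequence, and the libraries do not measure which start was used.

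*Cnr1* RNA was lower in Atrx-cKO tibias than in control tibias. Its TMM-normalized level was 6.31, 9.42 and 10.8 CPM in Atrx-cKO replicates 1, 2 and 3 and 14.2, 23.4 and 22.1 CPM in control replicates 1, 2 and 3. The groups did not overlap, and the lowest control was 1.32 times the highest Atrx-cKO library. Each group also varied within itself, since the highest library was 1.71 times the lowest in Atrx-cKO and 1.64 times in control. The means were 8.84 ± 2.30 CPM (SD, n = 3) and 19.9 ± 4.97 CPM (SD, n = 3), a control mean 2.25 times that of Atrx-cKO. These levels rest on 369, 538 and 636 counts in Atrx-cKO and on 811, 1557 and 1054 in control, for which counting error is at most 5.21%. Differences between mice of one genotype therefore exceeded counting error. In bulk RNA, fewer cells of a type and less RNA per cell cannot be told apart.

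The log2 fold change of *Cnr1* was -1.17 (standard error 0.25, edgeR) and -1.17 (standard error 0.23, DESeq2), from 2 programs for count data that estimate the spread of each gene differently. A gene is called here at a Benjamini-Hochberg adjusted p under 0.05 with a log2 fold change beyond 1 in size, the thresholds of the study. The values by which it was selected are the DESeq2 adjusted p of 0.00106 and its log2 fold change beyond 1 in size. At these thresholds DESeq2 called 0.0961% of the 23938 genes to which it gave an adjusted p, and 0.0543% as lower. EdgeR's quasi-likelihood fit gave *Cnr1* an adjusted p of 0.992 and called 0.0145% of 20636 genes. Nothing is read from these calls about *Cnr1*, which was selected on them. Groups that did not overlap were found for 8.31% of the genes tested in edgeR, and for 4.01% with Atrx-cKO lower. Leaving out 1 library moved the log2 fold change of *Cnr1* to between -1.36 (without control replicate 1) and -0.98 (without Atrx-cKO replicate 1) in edgeR, and to between -1.36 and -0.97 in DESeq2. In DESeq2, *Cnr1* was under the selection thresholds without Atrx-cKO replicate 1 (log2 fold change -0.97, adjusted p = 0.0281), without control replicate 2 (adjusted p = 0.125) and without control replicate 3 (adjusted p = 0.0599). It met them without each of the other libraries.

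**Figure D1:**
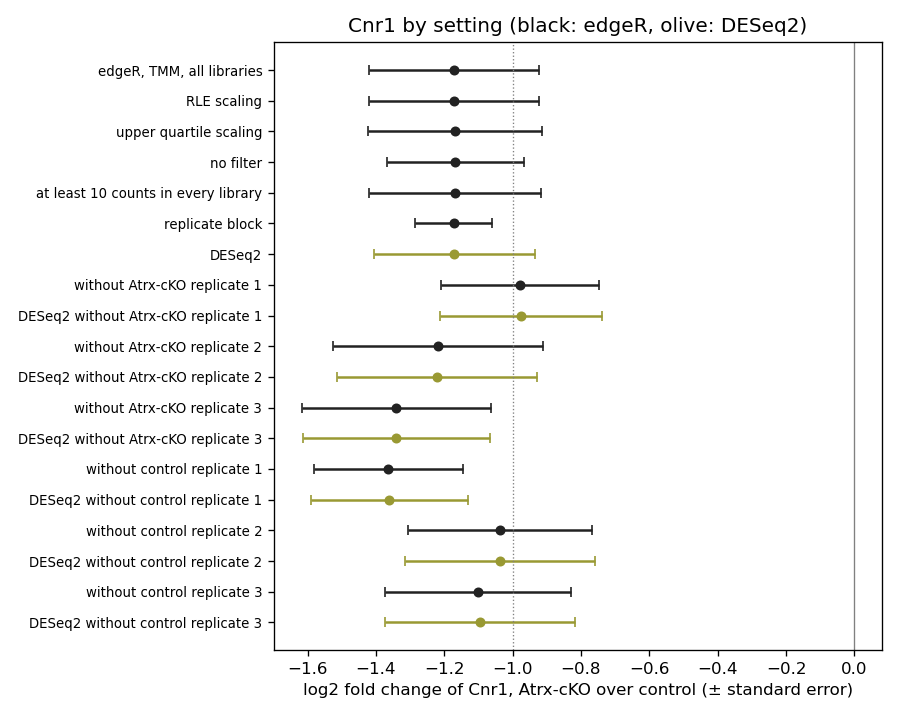
Log2 fold change of *Cnr1*, Atrx-cKO over control, with its standard error under each setting, edgeR in black and DESeq2 in olive, with dotted and solid lines at -1 and 0. All points lie between -1.36 and -0.97, and the settings without 1 library move it more than scaling, filter or test.

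None of the other receptors was called different between genotypes. *Cnr2* is carried mainly by B cells and macrophages among marrow cells. It had 21.4, 22.5 and 23.1 CPM in Atrx-cKO replicates 1, 2 and 3 and 27.2, 18.5 and 15.8 CPM in the controls. The Atrx-cKO libraries lay inside the control range, and the log2 fold change was 0.12 (95% interval -0.32 to 0.56, adjusted p = 0.992 in edgeR). The sign of the *Cnr2* difference turned without control replicate 3, where the log2 fold change was -0.048. *Gpr55*, a receptor for lysophosphatidylinositol that some cannabinoids also engage, averaged 1.42 ± 0.244 CPM in Atrx-cKO against 1.38 ± 0.373 CPM in control (SD, n = 3 each). Its log2 fold change was 0.046 (95% interval -0.60 to 0.69, adjusted p = 0.997 in edgeR), and the sign turned in 3 of the 6 edgeR fits that left out 1 library. *Trpv1*, the capsaicin-gated channel of pain-sensing neurons that anandamide can open, had 9, 5 and 7 counts in Atrx-cKO and 3, 8 and 10 in control. It did not pass edgeR's filter on low counts, and a difference was not detectable at this depth.

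The balance of the 2 cannabinoid receptor genes was read as a ratio within each library. The ratio of *Cnr1* to *Cnr2* CPM was 0.295, 0.419 and 0.468 in Atrx-cKO replicates 1, 2 and 3 and 0.522, 1.26 and 1.40 in control. Control replicate 1 was close to the highest Atrx-cKO library, while the other 2 controls had more *Cnr1* than *Cnr2* reads. CPM is not scaled to exon length, which is 6444 bases for *Cnr1* and 3982 for *Cnr2*. Per kilobase of exon, the control mean was higher for *Cnr2* (5.15) than for *Cnr1* (3.09). The ratio was set up after the levels were seen and contains *Cnr1*, so it is no separate evidence.

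**Figure D2:**
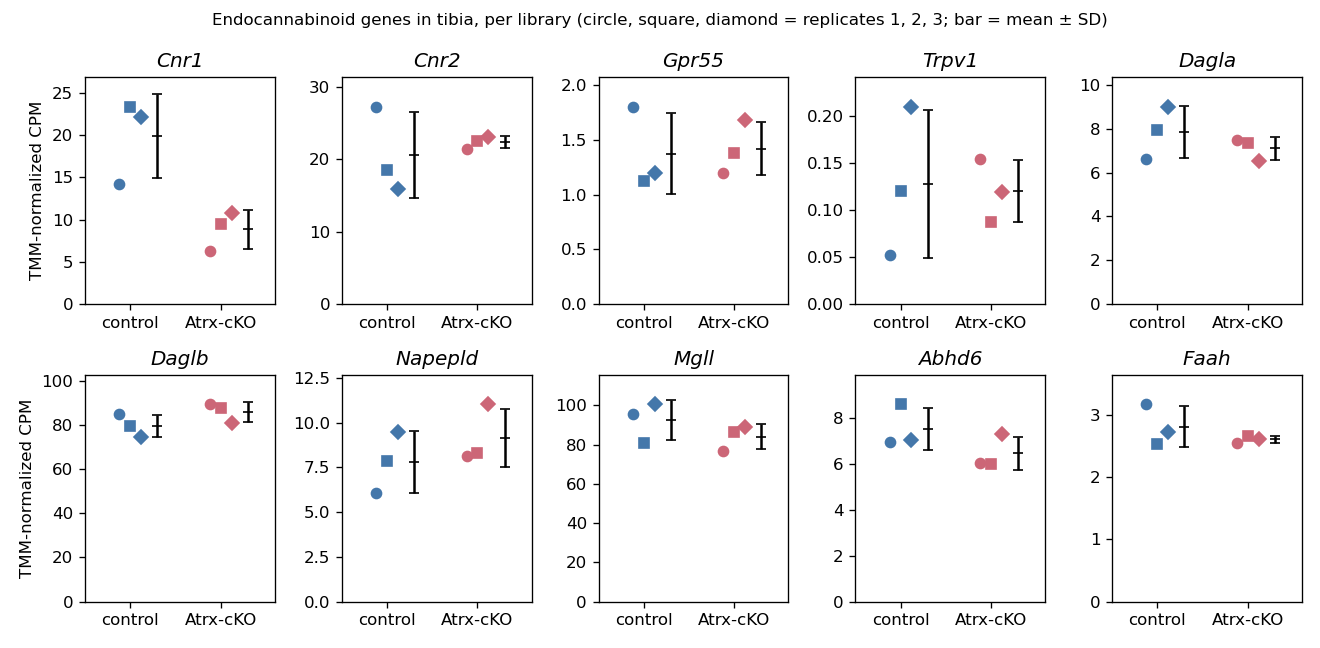
TMM-normalized CPM of the 10 genes in each control (blue) and Atrx-cKO (red) library, with the mean and SD of 3 libraries as a black bar and each axis starting at 0. *Cnr1* has no overlap between groups, from 6.31 to 10.8 CPM against 14.2 to 23.4 CPM, while the groups overlap in the other 9 panels.

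None of the enzymes that make endocannabinoids was called different between genotypes. *Daglb*, the diacylglycerol lipase prominent in macrophages, had 89.5, 87.9 and 81.0 CPM in Atrx-cKO and 85.0, 79.6 and 74.7 CPM in control, with a log2 fold change of 0.11 (95% interval -0.077 to 0.30, adjusted p = 0.992 in edgeR). *Daglb* shares 2309 exon bases, 24.1% of its exon length, with *Rac1* on the opposite strand, and the labels call the libraries strand specific without giving the counting setting. *Dagla*, the diacylglycerol lipase that supplies 2-AG at synapses, averaged 7.11 ± 0.516 CPM in Atrx-cKO against 7.86 ± 1.20 CPM in control (SD, n = 3 each), a log2 fold change of -0.14 (95% interval -0.50 to 0.21). *Napepld*, which releases N-acylethanolamines from their phospholipid precursor, had 8.15, 8.31 and 11.03 CPM in Atrx-cKO and 6.06, 7.85 and 9.51 CPM in control. Its log2 fold change of 0.23 was the highest of the 9 members tested (95% interval -0.24 to 0.70, adjusted p = 0.992 in edgeR). For *Daglb* and *Dagla* the intervals leave out a change of 1 on the log2 scale in either direction, and the same holds for *Napepld*.

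The degrading enzymes were likewise not called. *Mgll*, which encodes monoacylglycerol lipase, the main 2-AG hydrolase in brain, had 77.0, 86.6 and 88.8 CPM in Atrx-cKO and 95.8, 80.9 and 101 CPM in control, a log2 fold change of -0.14 (95% interval -0.38 to 0.11, adjusted p = 0.992 in edgeR). *Abhd6*, a membrane-bound 2-AG hydrolase, had 6.05, 6.004 and 7.28 CPM in Atrx-cKO and 6.94, 8.58 and 7.03 CPM in control. Atrx-cKO replicate 3 alone exceeded any control, lying above control replicates 1 and 3. The log2 fold change of *Abhd6* was -0.22 (95% interval -0.58 to 0.13). *Faah*, which breaks down anandamide, averaged 2.61 ± 0.0571 CPM in Atrx-cKO against 2.81 ± 0.326 CPM in control (SD, n = 3 each), a log2 fold change of -0.11 (95% interval -0.52 to 0.30).

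Of the 9 members other than *Cnr1*, 8 passed the filter, 4 with a log2 fold change above 0 and 4 below. EdgeR called 0 of the 8 against 0.0145% of all genes, 0 had an unadjusted p under 0.05 against 3.64% of all genes, and DESeq2 also called 0. Their median log2 fold change was -0.032, beside 0.0050 over all 20636 genes tested, and in 0 of the 8 were the groups free of overlap, against 8.31% of all genes.

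**Figure D3:**
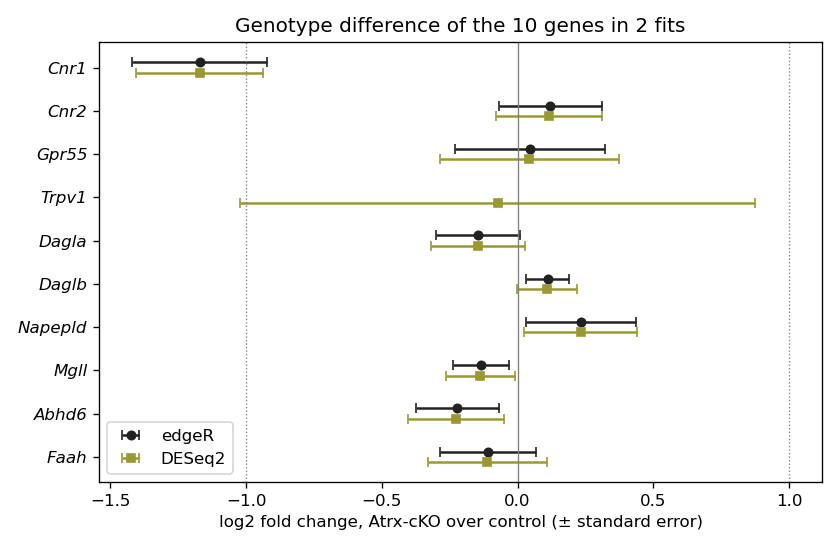
Log2 fold change, Atrx-cKO over control, with its standard error for each gene in edgeR (black circles) and DESeq2 (olive squares), with dotted lines at -1 and 1. *Cnr1* lies at -1.17 in both, the other genes tested in edgeR lie between -0.22 and 0.23, and *Trpv1* has a DESeq2 value alone with a standard error of 0.948.

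Scaled to exon length, the levels of the genes spanned a wide range. In control tibias *Mgll* was highest at 18.2 ± 2.03 CPM per kilobase of exon (SD, n = 3), followed by *Daglb* at 8.34 ± 0.537 and *Cnr2* at 5.15 ± 1.496. Next came *Abhd6* at 3.18 ± 0.390, *Cnr1* at 3.09 ± 0.771, *Napepld* at 1.97 ± 0.436 and *Dagla* at 1.37 ± 0.210, where the ranges of mean ± SD overlapped between neighbors in this order. *Gpr55* and *Faah*, at 0.370 ± 0.1003 and 0.359 ± 0.0416, did not differ beyond their spread, and *Trpv1* was last at 0.0346 ± 0.0215. In Atrx-cKO tibias the order was the same except that *Cnr1*, at 1.37 ± 0.356, stood below *Napepld* at 2.32 ± 0.408 and did not differ beyond its spread from *Dagla* at 1.24 ± 0.0899. Exon length here is the union over all annotated transcripts, so levels of genes with unused exons are understated.

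**Figure D4:**
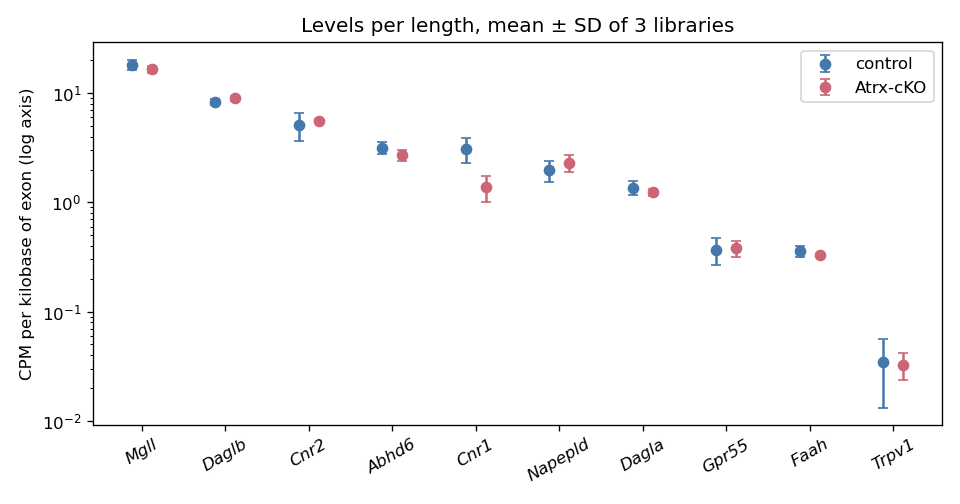
CPM per kilobase of exon on a log axis for each gene in control (blue) and Atrx-cKO (red) tibias, as mean and SD of 3 libraries, in the order of the control level. *Mgll* leads at 18.2 and 16.6 in control and Atrx-cKO, *Trpv1* is last at 0.0346 and 0.0326, and *Cnr1* shows the widest gap between colors at 3.09 and 1.37.

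The wider pathway was read from a list of 39 further genes, of which 37 passed the filter. EdgeR called 0 of them and 0 had an unadjusted p under 0.05, against 0.0145% and 3.64% of all genes, and DESeq2 called 0. The median log2 fold change was -0.014, with 16 genes above 0 and 21 below, and the groups were free of overlap in 0 of the 37, against 8.31% of all genes. *Gpr119* and *Hrasls5* had at most 4 counts in a library. Among the other receptors of these lipids, *Pparg*, the nuclear receptor that drives fat cell formation, was the most abundant per length, at 24.3 ± 2.24 CPM in Atrx-cKO against 22.0 ± 3.01 CPM in control (SD, n = 3 each). *Plcb2*, a phospholipase C that supplies diacylglycerol, was at 78.4 ± 1.23 and 79.0 ± 9.32 CPM (SD, n = 3), and *Gde1*, a phosphodiesterase of the alternative route to N-acylethanolamines, at 42.5 ± 1.77 and 44.9 ± 5.71 CPM (SD, n = 3). *Abhd12*, another 2-AG hydrolase, was at 59.2 ± 1.67 and 61.8 ± 6.73 CPM (SD, n = 3). These 4 genes differed between genotypes by less than the spread between the controls. *Gnai2*, the inhibitory G protein subunit with the highest level per length on the list, was at 587 ± 43.0 CPM in Atrx-cKO and 559 ± 11.05 in control (SD, n = 3). *Cnrip1*, which encodes a protein that binds the tail of CB1, was at 9.90 ± 0.671 and 10.6 ± 1.13 CPM (SD, n = 3), and its log2 fold change was -0.093 (standard error 0.13).

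Several listed genes differed more among controls than between genotypes. *Alox12*, a platelet lipoxygenase that can oxidize endocannabinoids, was at 172, 82.6 and 92.7 CPM in control replicates 1, 2 and 3 and between 145 and 149 CPM in Atrx-cKO. Its log2 fold change of 0.35 became 0.75 without control replicate 1 (adjusted p = 0.0967 in edgeR and 2.78e-11 in DESeq2, under the fold required for a call) and 0.16 without control replicate 2. *Alox15*, a related lipoxygenase, had the highest log2 fold change of the list at 0.62 (standard error 0.44), with 25.4, 13.5 and 11.2 CPM in Atrx-cKO and 17.7, 9.24 and 5.69 CPM in control. Leaving out 1 library moved it to between 0.18, when Atrx-cKO replicate 1 was dropped, and 1.16, when control replicate 1 was dropped, and neither program called it. *Fabp4*, the carrier protein of fat cells and macrophages, was at 104, 165 and 163 CPM in Atrx-cKO and 132, 94.7 and 140 CPM in control. *Hrasls*, *Pla2g4e* and *Fabp3* were highest in control replicate 3, the library with the highest muscle marker sum. *Hrasls*, an N-acyltransferase, had 4.83 CPM there and 0.876 to 1.59 CPM in the other 5 libraries, and its log2 fold change of -0.92 became 0.10 without that library and -1.31 without control replicate 1. *Pla2g4e*, an N-acyltransferase that forms anandamide precursors, had 5.31 CPM there and 1.03 to 1.97 CPM elsewhere, and its log2 fold change of -0.88 became -0.016 without that library and -1.27 without control replicate 1 (adjusted p = 0.384 in edgeR and 0.0825 in DESeq2). *Fabp3*, the fatty acid carrier of muscle, had 15.2 CPM there and 5.89 to 9.14 CPM elsewhere, and its log2 fold change of -0.29 became 0.25 without that library and -0.52 without control replicate 1. The part of muscle tissue in these 3 values was not tested beyond leaving that library out.

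*Cnr1* levels were also set beside the marker lists, since a whole tibia mixes bone, cartilage, marrow, nerve and attached tissue. The 6 osteoblast markers summed to 62348, 62535 and 62709 CPM in Atrx-cKO replicates 1, 2 and 3 and to 57832, 99230 and 89040 CPM in control. Most of each sum was *Col1a1*, at 58132, 57804 and 57532 CPM in Atrx-cKO and 53518, 92465 and 82582 CPM in control. Control replicate 1, the control with the least *Cnr1*, was also the one with the lowest osteoblast sum. All 6 osteoblast markers had a log2 fold change below 0 (median -0.27), 1 of them (*Ibsp*) without overlap between groups, against 8.31% of all genes, and edgeR called 0. All 4 osteoclast markers (median -0.43), all 4 tendon markers (median -0.28) and all 5 skeletal muscle markers (median -1.62) also had a log2 fold change below 0, and edgeR called 0 of them. The muscle sum was 9432 CPM in control replicate 3 but 596 and 673 CPM in control replicates 1 and 2. Atrx-cKO replicates 1, 2 and 3 had 1870, 891 and 545 CPM, so the muscle median rests mostly on that 1 control library. Every endothelial, erythroid, neutrophil and T and NK cell marker lay above 0 (medians 0.12, 0.080, 0.17 and 0.26). The osteocyte, macrophage, chondrocyte, adipocyte and Schwann cell lists were mixed in sign, and the 2 neuron markers tested were below 0. Per 1000 CPM of osteoblast markers, *Cnr1* was at 0.246, 0.235 and 0.249 CPM in the controls and at 0.101, 0.151 and 0.172 CPM in Atrx-cKO. The controls were close together on this scale, at 0.243 ± 0.00689 (SD, n = 3), and all lay above the Atrx-cKO libraries at 0.141 ± 0.0364 (SD, n = 3). The control mean was 1.72 times that of Atrx-cKO on this scale, against 2.25 times for *Cnr1* CPM. This scaling was chosen after the values were seen.

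The other marker lists were read in the same way. Chondrocyte markers (*Col2a1*, *Acan*, *Col10a1* and *Sox9*) summed to 741 to 1104 CPM in Atrx-cKO and to 1043, 1556 and 1528 CPM in control replicates 1, 2 and 3, so that control replicate 1 was again the lowest control. Most of each sum was *Col2a1*, at 705 to 1073 CPM in Atrx-cKO and 1017, 1503 and 1451 CPM in control. Per 100 CPM of chondrocyte markers, *Cnr1* was at 1.36, 1.501 and 1.45 CPM in the controls and at 0.571, 1.27 and 1.09 CPM in Atrx-cKO, without overlap and with a control mean 1.47 times that of Atrx-cKO. The controls were thus close together on the chondrocyte scale as well, at 1.44 ± 0.0702 (SD, n = 3). Adipocyte markers summed to 61.2 to 99.5 and 69.3 to 96.3 CPM, with overlap. Neuron markers (*Tubb3*, *Snap25*, *Th*, *Calca* and *Nefl*) summed to 7.26 to 8.58 CPM in Atrx-cKO and 8.76 to 10.8 CPM in control, without overlap and nearly all from *Tubb3*. *Snap25* had 6 to 10 counts in Atrx-cKO and 13 to 16 in control, low counts without overlap and lower in Atrx-cKO, against 4.01% of all genes. The groups overlapped in *Tubb3*, *Th*, *Calca* and *Nefl*. Schwann cell markers summed to 11.3 to 14.9 and 10.9 to 12.4 CPM. Endothelial markers summed to 464 to 479 CPM in Atrx-cKO and 424 to 458 CPM in control, without overlap and higher in Atrx-cKO. Of these 4 markers *Kdr* alone was without overlap, against 8.31% of all genes, and the groups overlapped in *Pecam1*, *Cdh5* and *Emcn*. Muscle markers summed to 545 to 1870 CPM in Atrx-cKO and to 596, 673 and 9432 CPM in control replicates 1, 2 and 3, where *Cnr1* was at 14.2, 23.4 and 22.1 CPM. Set against each of the 14 marker lists in turn, the *Cnr1* ratio was 1.47 to 2.96 times higher in control by the means, without overlap between groups for 11 of the lists. Each of these ratios contains *Cnr1*, which was selected for being lower in Atrx-cKO, so they restate that difference and are no separate evidence. The part of each cell type in the *Cnr1* difference was not tested.

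**Figure D5:**
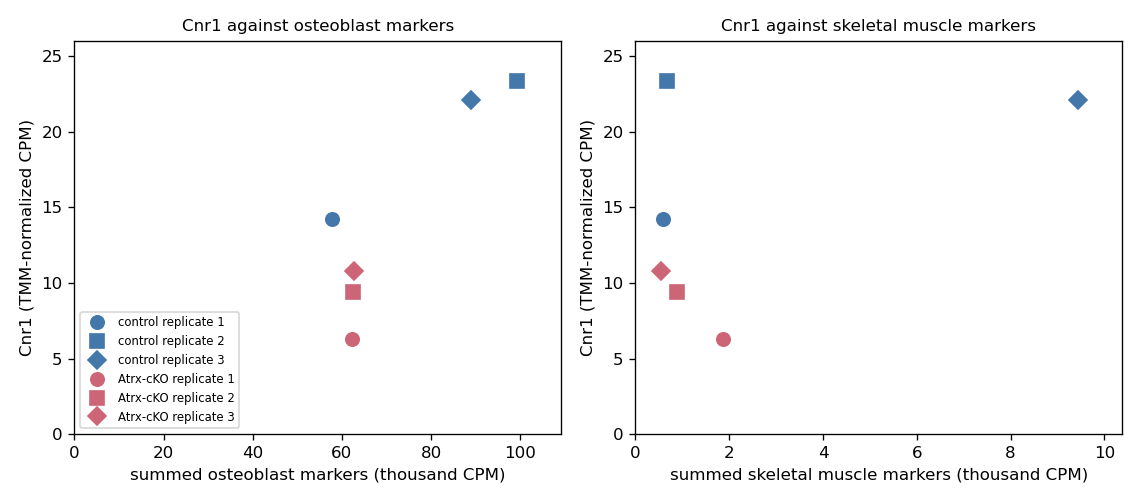
TMM-normalized CPM of *Cnr1* against the summed CPM (axis in units of 1000 CPM) of 6 osteoblast markers (left) and 5 skeletal muscle markers (right), 1 point per library, control in blue and Atrx-cKO in red. Most of each osteoblast sum is *Col1a1*. At osteoblast sums of 57832 to 62709 CPM, control replicate 1 has 14.2 CPM of *Cnr1* and the 3 Atrx-cKO libraries 6.31 to 10.8. Control replicate 3, with the highest muscle sum, has a *Cnr1* level near that of control replicate 2.

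The genes whose profile over the 6 libraries lay nearest to that of *Cnr1* were *Wscd2*, *Trhr*, *Sema3d*, *Gm26953* and *Loxl2*. Likeness was the root mean square difference of log2 levels centered per gene, with 0.5 CPM added. The search favors genes with a like difference between groups on this scale, so their differences are descriptions. Their log2 fold changes in edgeR were -1.15 for *Wscd2*, -2.89 for *Trhr*, -0.76 for *Sema3d*, -1.52 for *Gm26953* and -0.90 for *Loxl2*, against -1.17 for *Cnr1*. The measure was 0.108 for *Wscd2*, 0.124 for *Trhr* and 0.206 to 0.217 for the other three, beside a median of 0.665 over the genes compared. *Trhr*, the receptor of thyrotropin-releasing hormone, had low counts, with 2, 8 and 11 in Atrx-cKO and 30, 69 and 55 in control. At such levels the added 0.5 CPM shrinks its larger fold on the likeness scale. *Sema3d*, a secreted guidance cue, had 105, 145 and 181 CPM in Atrx-cKO and 161, 306 and 264 CPM in control, and the groups overlapped. *Loxl2*, an enzyme that cross-links collagen, had 231, 292 and 304 CPM in Atrx-cKO and 309, 685 and 551 CPM in control. *Wscd2* had 1.38 to 3.05 and 3.08 to 6.002 CPM, and the lincRNA *Gm26953* had 0.342 to 1.66 and 1.56 to 3.51 CPM. In all 5, as in *Cnr1*, Atrx-cKO replicate 1 was the lowest library and control replicate 1 the lowest control. The search compared levels over all 6 libraries, so it also selected for this order, which is a description. The closest of the listed endocannabinoid genes was *Gnai1*, an inhibitory G protein subunit, at rank 621 with a difference of 0.473, behind the osteoblast markers *Ibsp* (rank 154), *Col1a1* (rank 400) and *Alpl* (rank 410) and the chondrocyte markers *Acan* (rank 444) and *Col2a1* (rank 486). The osteoblast markers *Bglap* (rank 627), *Sp7* (rank 852) and *Runx2* (rank 2575) lay behind it. So did the chondrocyte markers *Sox9* (rank 6322) and *Col10a1* (rank 20620).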

How the data were processed

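RNA from tibias of 3 Atrx-cKO and 3 control mice was sequenced as 150-bp paired-end reads. The authors deposited raw counts per gene, 1 table per library. The submitters' processing notes name GRCm38 and DESeq2, and the aligner and counting program are not given in the sources used here. Of each table, 42.8% to 43.8% of counts were on genes and 51.6% to 52.4% on no feature. Entries that name no gene were kept out of library sizes. Groups and replicate numbers came from the sample labels. GENCODE M21 (GRCm38) named 55141 of 55401 identifiers and gave all gene coordinates.

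Counts were fitted over all genes with edgeR 4.0.16 (TMM, filterByExpr, quasi-likelihood test, genotype alone) in R 4.3.3, with Benjamini-Hochberg adjustment. Calls required an adjusted p under 0.05 together with a log2 change of 1 or more. DESeq2 1.42.0 was the alternative, and both were tested on simulated data, where DESeq2 recovered more of the changed genes and made more false calls than edgeR. Standard errors are the fold change over the root of F, and intervals use the fit's degrees of freedom. Libraries of one genotype differed beyond sampling noise (chi-square per degree of freedom at least 15.8). The 10 genes, the 39 further genes and the 14 marker lists were chosen with earlier results of these data known, and 1 further list is not reported here. Named genes were the 10, *Atrx*, the most abundant listed gene per role, and the 5 nearest profiles. *Alox15*, *Hrasls*, *Pla2g4e*, *Fabp3*, *Cnrip1*, *Gnai1*, *Gpr119*, *Hrasls5*, *Rac1* and the named markers were chosen after their values were seen.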

Additional observations from a re-analysis of the deposited data

How the results depend on the processing

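The *Cnr1* log2 fold change moved by less than 1 SD between replicates under all 18 alternatives, from -1.36 to -0.97, a direction that its selection fixes. Calls among the 9 other members and the 39 further genes stayed at 0 in each. With *Cnr1* counted, DESeq2 called 1 member over all libraries and from 0 to 1 without 1 library, and edgeR called 0. Of all genes, edgeR called 3, against 5 without a filter, 1 with at least 10 counts in every library, and 23 in DESeq2. Deviations of same-numbered libraries correlated at -0.0031, 0.11 and -0.10. These were not set beside differently numbered libraries, so they cannot decide whether replicate numbers mark pairs. EdgeR called 0 genes when fitted with a replicate block. *Cnr1* was then at -1.17 (standard error 0.11, against 0.25 without the block) with an adjusted p of 0.248. Leaving out 1 library, edgeR called 0 genes without control replicate 2 and without either of Atrx-cKO replicates 1 and 2, and up to 5 without control replicate 3. DESeq2 called 19, 18 and 22 without Atrx-cKO replicates 1, 2 and 3, and 70, 13 and 17 without control replicates 1, 2 and 3.

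Signs turned for some genes without 1 library. Across the edgeR fits the log2 fold change ran from -0.048 to 0.38 for *Cnr2*, -0.096 to 0.29 for *Gpr55*, -0.091 to 0.088 for *Plcb2*, -0.16 to 0.0069 for *Gde1*, -0.15 to 0.0065 for *Abhd12*, -1.31 to 0.10 for *Hrasls* and -0.52 to 0.25 for *Fabp3*. In DESeq2 the turned values were -0.044 for *Cnr2*, -0.097, -0.087 and -0.051 for *Gpr55*, 0.089 for *Plcb2*, 0.011 for *Gde1*, 0.0067 for *Abhd12*, 0.11 for *Hrasls*, 0.25 for *Fabp3* and 0.00084 for *Atrx*. The cause of these changes was not tested. Low counts limit *Trpv1*, *Gpr119* and *Hrasls5*.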
